A study of Mus musculus with 2 samples.

Results

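A stretch of mouse chromosome 2 from 85 to 87 Mb (mm9) carries 90 olfactory receptor genes, the first stretch of a longer genomic cluster in which 135 further entries follow. The 90 genes were taken by position alone, as every Olfr entry on chromosome 2 with a locus start in that interval, out of 1112 entries in the table. RNA was sequenced from the olfactory epithelium of adult C57BL/6 mice. The series has 2 samples, both with the genotype label wild type and no treatment named, of which the first is described as wt and the second as 3bko, a term the labels do not explain. The deposited table gives 1 FPKM value per gene (sequenced fragments relative to gene length and to all mapped fragments) with both samples named in every row, and does not say which of them it belongs to, so each value below is the authors' single value, without replicates and without a measure of error. No test between samples or between groups of genes was possible or run, and all comparisons are descriptions of this one set of values. The table holds only Olfr entries and none of the neuronal or other cell type markers looked for, so the labelled tissue could not be checked.

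Olfactory receptors are G protein-coupled receptors that detect odorants. Each mature olfactory sensory neuron expresses one receptor gene, from one allele, out of the whole repertoire. Receptor genes sit in tandem arrays that grew by local duplication, typically with the coding sequence in the last exon and noncoding exons upstream, and homeodomain and Olf/EBF sites are known features of their promoters. In RNA from whole tissue, fewer neurons choosing a receptor and less RNA per neuron cannot be told apart.

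All 90 genes are class II (tetrapod-type) receptors. Those with 1 MOR family name, 86 of 90, fall into 26 MOR families, and 24 of these families have no entry elsewhere in the table. The other 4 genes carry names of several families. Entries elsewhere with names of several families, or none, were not counted for the 24. Loci were separated by a median gap of 16.3 kb (1.56 to 140 kb), none overlapped, and 63 lay on the minus strand and 27 on the plus strand. The first gene is Olfr987 (85171124 to 85172053) and the last Olfr1111. The next entry, Olfr1112, lies 41.0 kb beyond Olfr1111 and had 10.8 FPKM, while Olfr1111 just inside the boundary had 1.22 FPKM. The nearest entry before Olfr987 on the chromosome, Olfr368 with 1.15 FPKM, lies 47983 kb away.

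The sequences below are shown because Olfr1110 had the highest value of the array while its nearest relatives, which lie next to it, did not. Each is the same stretch of coding sequence, bases 331 to 420 from the start codon, from GENCODE M21, around the conserved Asp-Arg-Tyr codons that follow the third transmembrane helix. Capitals mark bases that differ from Olfr1110.
Olfr1110: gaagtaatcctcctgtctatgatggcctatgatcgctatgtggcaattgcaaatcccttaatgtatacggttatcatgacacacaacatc
Olfr259: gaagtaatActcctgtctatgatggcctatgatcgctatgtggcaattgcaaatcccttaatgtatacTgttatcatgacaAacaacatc
Olfr1107: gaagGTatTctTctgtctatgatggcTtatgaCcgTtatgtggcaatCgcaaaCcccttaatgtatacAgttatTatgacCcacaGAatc
Olfr1109: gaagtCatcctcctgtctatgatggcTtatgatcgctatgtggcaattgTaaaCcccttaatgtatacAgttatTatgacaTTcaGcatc

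The same stretch follows for the MOR192 receptors, 3 near-copies in a row with unlike values. Capitals mark differences from Olfr1080.
Olfr1080: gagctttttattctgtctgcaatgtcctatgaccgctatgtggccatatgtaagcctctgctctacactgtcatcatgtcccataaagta
Olfr1082: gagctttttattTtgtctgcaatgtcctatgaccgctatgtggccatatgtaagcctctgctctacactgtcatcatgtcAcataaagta
Olfr1084: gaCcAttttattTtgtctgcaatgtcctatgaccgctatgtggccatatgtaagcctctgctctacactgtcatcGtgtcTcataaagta

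Olfr259 differed from Olfr1110 at 3 of these 90 bases, Olfr1109 at 9 and Olfr1107 at 14. Olfr1082 differed from Olfr1080 at 2 and Olfr1084 at 5. Over the whole coding sequence of 939 bases, Olfr259 and Olfr1110 were 90.3% identical, and 92.0% identical in protein.

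In RefSeq (GRCm38.p6), 64 of the 90 genes have an annotated transcript start with promoter sequence. For 57 of them that start lies within 100 bases of the start codon, and for 42 it is the start codon itself, so the bases before it need not be a promoter. The other 7 genes have a start at least 900 bases upstream of the start codon. Below are the 250 bases before that start for 5 of these, namely the highest 3 by FPKM and the near-identical neighbours Olfr1080 and Olfr1082. Capitals mark the homeodomain-like motif TAATNA, the Olf/EBF-like motif CCCNNGGG and the TATA motif TATAAA, on either strand. The windows are chr2:87140234-87140483, minus strand (Olfr1110), chr2:86782295-86782544, plus strand (Olfr1093), chr2:86892164-86892413, minus strand (Olfr1097), chr2:86558139-86558388, minus strand (Olfr1080) and chr2:86598810-86599059, minus strand (Olfr1082), all on GRCm38.p6.
Olfr1110: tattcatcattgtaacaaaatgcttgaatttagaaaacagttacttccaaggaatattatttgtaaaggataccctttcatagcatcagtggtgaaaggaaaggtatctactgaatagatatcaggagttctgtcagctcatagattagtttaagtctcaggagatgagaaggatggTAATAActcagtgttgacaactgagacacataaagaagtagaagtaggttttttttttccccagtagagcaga
Olfr1093: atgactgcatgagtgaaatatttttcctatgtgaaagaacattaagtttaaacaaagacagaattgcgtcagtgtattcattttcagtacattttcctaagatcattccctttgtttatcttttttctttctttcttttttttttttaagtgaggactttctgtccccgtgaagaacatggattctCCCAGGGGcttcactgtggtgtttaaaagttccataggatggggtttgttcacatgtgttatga
Olfr1097: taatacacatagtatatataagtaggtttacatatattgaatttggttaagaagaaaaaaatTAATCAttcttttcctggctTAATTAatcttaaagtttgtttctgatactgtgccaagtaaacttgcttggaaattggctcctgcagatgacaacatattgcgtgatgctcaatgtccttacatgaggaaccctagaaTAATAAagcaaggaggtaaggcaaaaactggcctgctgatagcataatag
Olfr1080: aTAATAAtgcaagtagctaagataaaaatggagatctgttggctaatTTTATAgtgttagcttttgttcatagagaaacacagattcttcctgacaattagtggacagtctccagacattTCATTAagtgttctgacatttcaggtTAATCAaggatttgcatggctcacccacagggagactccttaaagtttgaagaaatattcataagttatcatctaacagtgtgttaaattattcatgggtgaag
Olfr1082: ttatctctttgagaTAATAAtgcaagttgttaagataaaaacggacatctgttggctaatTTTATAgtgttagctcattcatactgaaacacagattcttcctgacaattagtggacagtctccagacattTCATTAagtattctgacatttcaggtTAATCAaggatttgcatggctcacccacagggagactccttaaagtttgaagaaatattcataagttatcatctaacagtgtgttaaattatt

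TAATNA, searched on both strands and including TAATTA, was found in 6 of the 7 windows (85.7%), with Olfr1093 as the exception. The share was 67.9% of the 81 windows of other receptors with a start equally far from the start codon, and 24.3% of all 32851 promoter windows of the same length in the RefSeq table. CCCNNGGG was found in 1 of 7 windows (14.3%), that of Olfr1093, against 14.8% of the other receptors' windows and 11.8% of all windows. TATAAA was found in 2 of 7 (28.6%), in 23.5% of the other receptors' windows and in 12.4% of all windows. Those 2 windows were of Olfr1080 and Olfr1082, which were 91.2% identical, so they are not independent. Both also count among the 6 with TAATNA. The stricter TAATTA was found in 2 of 7 (28.6%), in 19.8% and in 4.84%. Over the 64 genes with any RefSeq window, TAATNA was present in 73.4%, TATAAA in 42.2% and TAATTA in 20.3%, while CCCNNGGG was present in 1. For 57 of these 64 the window ends within 100 bases of the start codon and need not be a promoter. Other receptors with such windows were not compared. The windows were not matched for base composition, and a match is a string of letters and not a shown binding site.

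The median level of the array lay below that of the other entries. It was 0.838 FPKM (interquartile range 0.278 to 1.43) over the 90 genes, against 1.12 FPKM (0.388 to 3.20) over the 1022 other Olfr entries, 1.36 FPKM over the 895 class II entries outside the interval and 1.86 FPKM over the 135 entries in the rest of the same genomic cluster. On the log2(FPKM + 0.1) scale the median differed by -0.38 from that of all other entries and by -1.06 from that of the rest of the cluster. Of the 90 genes, 37 reached 1 FPKM (41.1%), against 52.5% of all entries in the table and 62.2% of the rest of the cluster. The level of 5 FPKM was reached by 5 genes (5.56%), against 14.3% of all entries, and that of 0.1 FPKM by 77 genes (85.6%), against 91.4% of all entries. While 8.09% of the table's entries lie in the array, their FPKM came to 4.56% of the table's sum.

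**Figure D1:**
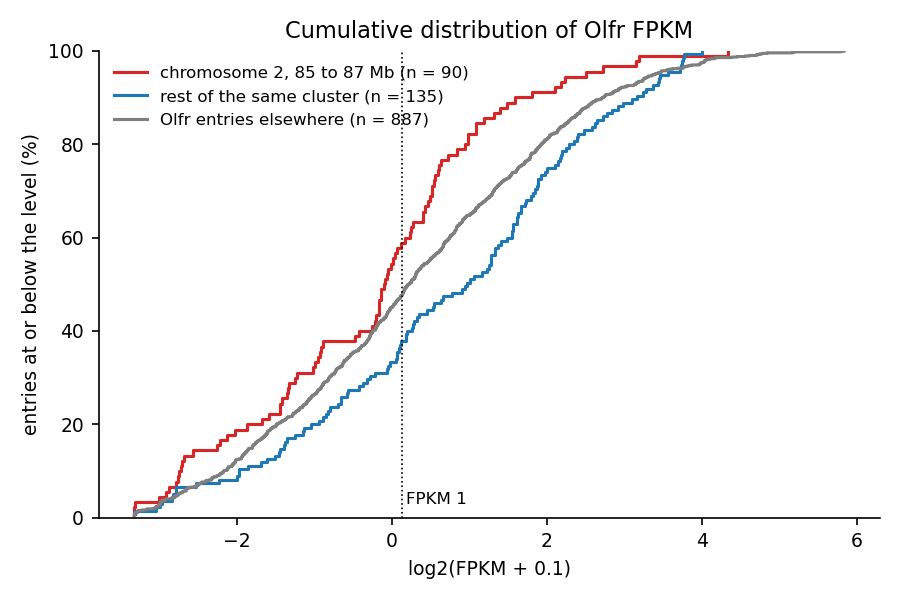
Cumulative distribution of log2(FPKM + 0.1) for the 90 chromosome 2 genes, the 135 other entries of the same genomic cluster and the 887 Olfr entries elsewhere. At FPKM 1 (dotted line) the curve of the 90 genes lies above the other curves, with 37 of 90 at or above that level against 84 of 135 in the rest of the cluster.

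The sum was concentrated in few genes. Olfr1110 alone held 14.9% of the array's summed FPKM, the highest 3 genes held 28.2% and the highest 10 held 51.7%. The table's status was NOTEST for 20 of the 90 genes (22.2%), against 18.3% of all entries, and these ranged from 0 to 0.274 FPKM. The 70 genes with status OK ranged from 0.173 to 20.1 FPKM, so the ranges overlapped. Without Olfr1110 the median of the array was 0.834 FPKM.

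Olfr1110 (86975538 to 86976476, minus strand), of family MOR172, had 20.1 FPKM and ranked 14th of all 1112 entries. Its value was 2.22-fold that of the next gene in the array and 24.0-fold the array's median. The second was Olfr1093 (86625889 to 86626857), a MOR179 receptor, at 9.05 FPKM. The third was Olfr1018 (85663130 to 85664065), the only MOR260 receptor here, at 8.77 FPKM. Its closest protein relative in the table, Olfr707, lay outside the array and was 55.0% identical. Next came the MOR206 receptors Olfr1099 at 6.53 FPKM and Olfr1097 at 5.58 FPKM. Behind them were Olfr1015 at 4.63 FPKM, Olfr1006 at 4.47 FPKM, Olfr1080 at 4.23 FPKM and Olfr1013 at 3.41 FPKM. Olfr1100 at 2.91 FPKM, Olfr1012 at 2.70 FPKM and Olfr1014 at 2.55 FPKM completed the highest 12. Every coding 50-mer of Olfr1093, Olfr1018, Olfr1099, Olfr1015, Olfr1006 and Olfr1100 occurred in no transcript of another Olfr entry of the table. The same held for 93.7% of those of Olfr1110. Only 62.3% of those of Olfr1097, 74.7% of those of Olfr1013 and Olfr1014 and 50.4% of those of Olfr1080 were unique, and those values are uncertain where reads are shared.

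**Figure D2:**
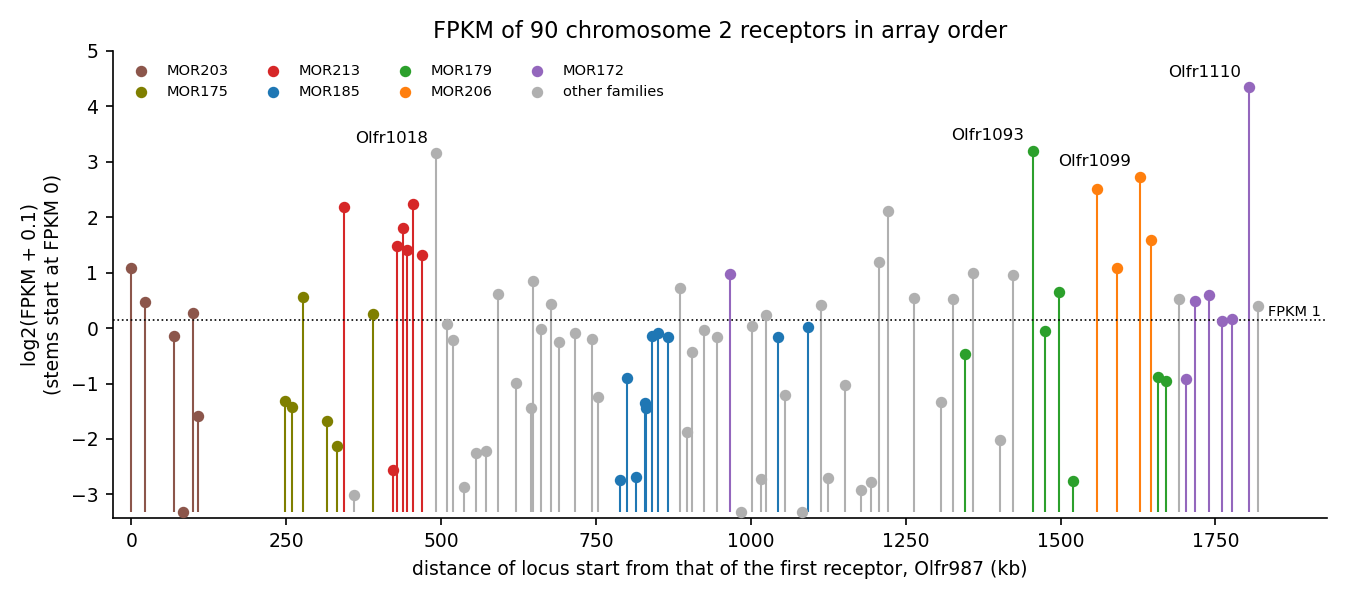
FPKM of the 90 genes in array order on the log2(FPKM + 0.1) scale, against distance from the first gene in kb, with 7 MOR families coloured and the dotted line at FPKM 1. Olfr1110 stands at the far end with 20.1 FPKM. The MOR206 genes and the MOR213 genes from Olfr1012 to Olfr1016 form neighbouring groups above FPKM 2. The MOR213 gene Olfr1006, at 4.47 FPKM, stands apart from its group, and the MOR213 pseudogene Olfr1010 lies at 0.0699 FPKM.

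Several runs of high and of low genes stood along the array. The longest run of neighbours at 2 FPKM or more comprised 6 genes from Olfr1012 to Olfr1018 over 64.5 kb, with 2.39 to 8.77 FPKM. The next comprised the 4 MOR206 genes from Olfr1097 to Olfr1100 over 88.6 kb. Between Olfr1019 and Olfr1077-ps1, 42 genes in a row over 688 kb stayed below 2 FPKM, with a median of 0.690 FPKM and a highest value of 1.87 FPKM. That stretch includes a run of 12 genes below 1 FPKM, from Olfr1033 to Olfr1045. By window of 500 kb the median was 0.554 FPKM over the first 10 genes, 0.768 over the next 30, 0.796 over the following 28 and 1.32 over the last 22. Those last 22 genes included 4 of the 5 genes at 5 FPKM or more.

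Families of neighbouring relatives differed in level. Of the families with at least 4 genes in the array, MOR206 had the highest median at 4.25 FPKM, from 2.02 for Olfr1098 to 6.53 for Olfr1099, and all 4 of its genes exceeded 1 FPKM. MOR213 followed with a median of 2.70 FPKM over 7 genes. Its 6 intact genes ranged from 2.39 FPKM for Olfr1016 to 4.63 for Olfr1015, while Olfr1010, typed as a transcribed pseudogene in RefSeq, had 0.0699. Every coding 50-mer of Olfr1010 was unique to it among the entries of the table.

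MOR185, the largest family in the array with 10 genes, had no gene at 1 FPKM. Its median was 0.612 FPKM, and the highest were Olfr1062 at 0.916 and Olfr52 at 0.841. The lowest was the pseudogene Olfr1038-ps at 0.0494. MOR187, with 5 genes, had none at 1 FPKM either. Olfr1049 at 0.872 and Olfr1051 at 0.797 were its highest, and Olfr1053 was listed at 0. MOR175 had a median of 0.287 FPKM over 6 genes, with Olfr1000 at 1.38 and Olfr1009 at 1.09 highest and Olfr154 at 0.129 lowest. MOR203, at the start of the array, had a median of 0.956 FPKM over 6 genes, with Olfr987 at 2.03 and Olfr988 at 1.29 highest and Olfr993 at 0.000595 lowest. MOR188 had a median of 0.932 FPKM over 5 genes, with Olfr1087 at 1.89 and Olfr1090 at 1.83 highest and Olfr1061 listed at 0.

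Families MOR189 and MOR196, with 4 genes each, spanned wide ranges. Olfr1079 had 2.19 FPKM, Olfr228 0.393, Olfr1077-ps1 0.0458 and Olfr1076 0.0324 in MOR189. In MOR196, Olfr1030 had 1.69 FPKM, Olfr1026 1.43, Olfr1023 0.110 and Olfr1022 0.0367. MOR186, MOR190, MOR198 and MOR199, with 2 genes each, ranged from 0.0525 FPKM for Olfr1055 to 1.24 for Olfr1032. Families with a single gene in the array ranged from 0.115 FPKM for Olfr1024 (MOR197) to 8.77 for Olfr1018.

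MOR172 and MOR179 each had one gene far above the rest. In MOR172 the other 6 genes ranged from 0.427 FPKM for Olfr1105 to 1.87 for Olfr1052, against 20.1 for Olfr1110. In MOR179, Olfr1093 had 9.05 FPKM, Olfr1094 had 1.46 and the lowest, Olfr1095, had 0.0485. Over the 53 genes in the 8 families with 5 or more genes, 25.6% of the variance in log2(FPKM + 0.1) lay between families, so most of the spread was within them. The share that unrelated groups of these sizes would give was not computed, and MOR206, with 4 genes, is not among these families. Some of these families were interleaved with others, as the 5 MOR188 genes lie apart over 527 kb that hold 27 of the 90 genes. The 6 MOR203 genes lie in a row. The 7 MOR172 genes span 839 kb that hold 40 genes, but only Olfr1052 lies apart from a row from Olfr1105 to Olfr1110. The 10 MOR185 genes span 303 kb that hold 22, with a row from Olfr1038-ps to Olfr1045 and Olfr1057 and Olfr1062 apart.

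**Figure D3:**
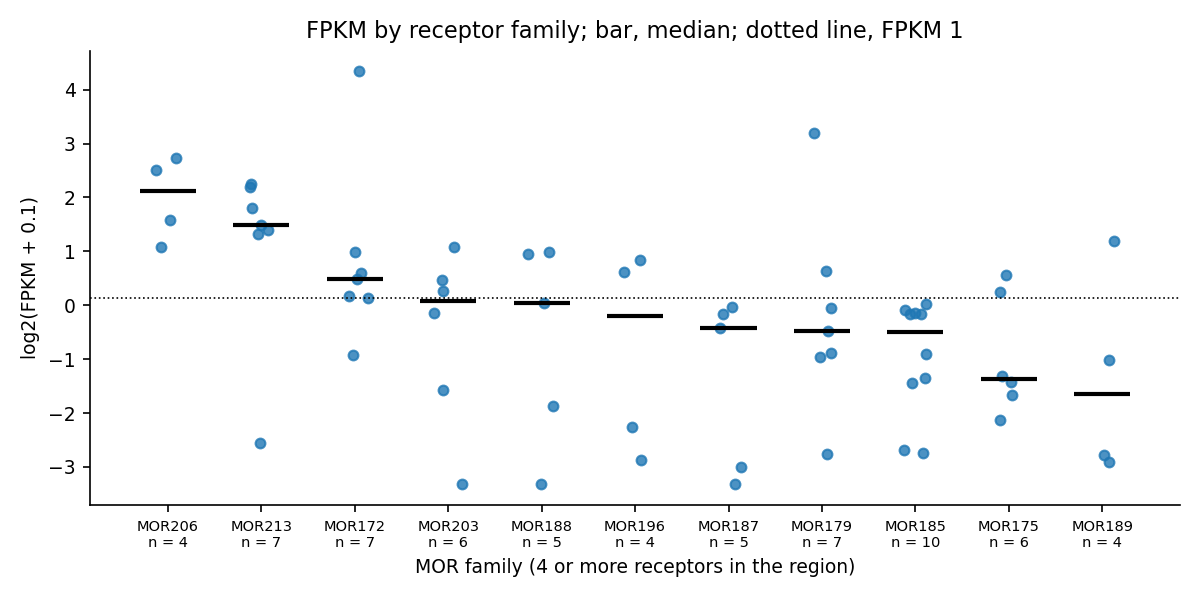
Log2(FPKM + 0.1) of each gene by MOR family, for families with at least 4 genes in the array, ordered by median (bar). MOR206 and MOR213 lie above the dotted line at FPKM 1 except for Olfr1010, all MOR185 and MOR187 genes lie below it, and MOR172 and MOR179 each have 1 gene far above the others.

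Neighbouring genes often differed widely in level. Over 89 adjacent pairs the median absolute difference was 1.46 on the log2(FPKM + 0.1) scale, against 1.36 over 973 adjacent pairs in the other entries and 1.28 over 134 in the rest of the cluster. Over all 3741 pairs of the array's genes, adjacent or not and leaving out pseudogenes, the median was 1.53. Adjacent genes of the same family differed by a median of 1.03 (44 pairs), and those of different families by 1.83 (45 pairs). On that scale the widest step was between Olfr1095 at 0.0485 FPKM and Olfr1097 at 5.58 FPKM, loci 38.5 kb apart. Olfr1006 at 4.47 FPKM lies 10.7 kb from Olfr1008 at 0.0245 FPKM, the wider step as a ratio (182-fold, against 115-fold). Ratios to Olfr993, at 0.000595 FPKM, were wider still, at 1354-fold for Olfr992 and 1858-fold for Olfr994, so the order of the steps depends on the pseudocount.

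Near-identical duplicates showed both equal and unequal values. Protein identity was computed for 87 genes, leaving out the 3 pseudogenes, and 84 of the 87 had their closest relative within the array. Of 3741 pairs, 16 were at least 90% identical, 11 of them adjacent. Olfr1049 and Olfr1051 were 98.4% identical in protein and had 0.872 and 0.797 FPKM. Olfr1057 and Olfr1062 were 97.8% identical and had 0.792 and 0.916 FPKM. Olfr1034 and Olfr1036 were 97.4% identical and had 0.834 and 0.772 FPKM. In these 3 pairs only 46.4% to 64.1% of the coding 50-mers were unique to a gene, and how far shared reads make the values alike was not tested.

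Other close relatives had unlike values. Olfr1028 had 0.405 FPKM and Olfr1029 had 0.269 at 97.2% identity. Olfr987 had 2.03 FPKM and Olfr988 had 1.29 at 97.1% identity. Within MOR192, Olfr1080 had 4.23 FPKM, Olfr1082 had 1.36 and Olfr1084 had 0.296. Olfr1080 and Olfr1082 were 97.1% identical in protein, and their 250-base windows above were 91.2% identical. Of the coding 50-mers, 50.4% were unique in Olfr1080, 50.5% in Olfr1082 and 65.4% in Olfr1084. How far shared reads move the values of these relatives was not tested. Olfr1084 has an annotated transcript of 1 exon, with no upstream intron, while Olfr1080 and Olfr1082 have 2 exons each. The deposited loci also differ, at 4958 bp for Olfr1080, 4925 bp for Olfr1082 and 954 bp for Olfr1084. Whether exon number or gene model bears on these values was not tested. Olfr1110 and its neighbour Olfr259 differed 19.7-fold, at 20.1 and 1.02 FPKM, with 93.7% of coding 50-mers unique in both. Olfr141 and Olfr1095 differed 17.8-fold, at 0.863 and 0.0485 FPKM, with 93.7% and 93.5% unique. On the log2(FPKM + 0.1) scale, 50% of the 16 pairs differed by more than 1, against 37.5% of the 24 pairs at 80% to 90% identity and 65.6% of all 3741 pairs. Among the 16, 1 pair included a gene listed at 0, and 13 involved a gene with fewer than 90% unique 50-mers. In 7 of the 16, one gene had a single annotated exon and its relative more.

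**Figure D4:**
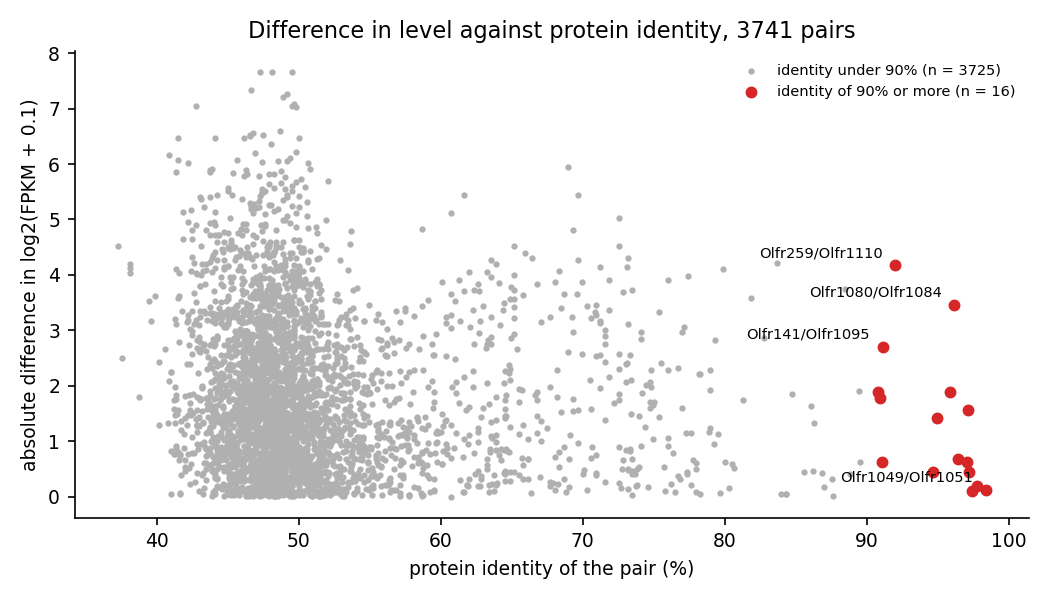
Absolute difference in log2(FPKM + 0.1) against protein identity for 3741 pairs of genes in the array, with the 16 pairs of at least 90% identity in red and 4 of them named. Differences among the 16 pairs run up to 4.17, for Olfr259 and Olfr1110.

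Genes annotated with a single exon had the lowest median. It was 0.0854 FPKM for the 18 genes whose longest coding transcript in GENCODE M21 has 1 exon. With 2 exons the median was 0.916 FPKM (51 genes), with 3 exons 1.23 FPKM (17 genes) and with 4 or more 0.619 FPKM (4 genes). In the other entries these medians were 0.0891, 1.05, 1.68 and 2.44 FPKM over 102, 576, 254 and 80 genes. No single-exon gene of the array reached 1 FPKM, and all highest 12 genes had at least 2 exons. Among other entries, 9 of 102 single-exon genes (8.82%) reached 1 FPKM.

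Of the single-exon models in the array, 10 have no annotated untranslated region (UTR) at either end. They ranged from 0 to 0.115 FPKM, with a median of 0.0346, and all had the status NOTEST. The 58 other entries without an annotated UTR had a median of 0.0492 FPKM. Of those 58, 51 (87.9%) had that status and 2 (3.45%) reached 1 FPKM. Olfr1053 and Olfr1061 were listed at 0, Olfr993 had 0.000595 FPKM, Olfr1008 had 0.0245, Olfr1076 had 0.0324 and Olfr1022 had 0.0367. They are the 6 lowest genes of the array. The other 4 were Olfr1095, Olfr1066 at 0.0534, Olfr1040 at 0.0558 and Olfr1024 at 0.115. The 8 single-exon genes with an annotated UTR ranged from 0.129 to 0.834 FPKM, above all 10 without. The 3 pseudogenes Olfr1010, Olfr1038-ps and Olfr1077-ps1 lay within the range of the 10, at 0.0699, 0.0494 and 0.0458 FPKM, although each has 2 annotated exons. Outside the array, entries named as pseudogenes ranged from 0.0332 FPKM for Olfr29-ps1 to 15.7 for Olfr856-ps1, so a low level is not common to all pseudogenes. Annotated exons and UTRs depend on the transcripts known to the annotation, and how far that availability moves with the level was not tested.

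**Figure D5:**
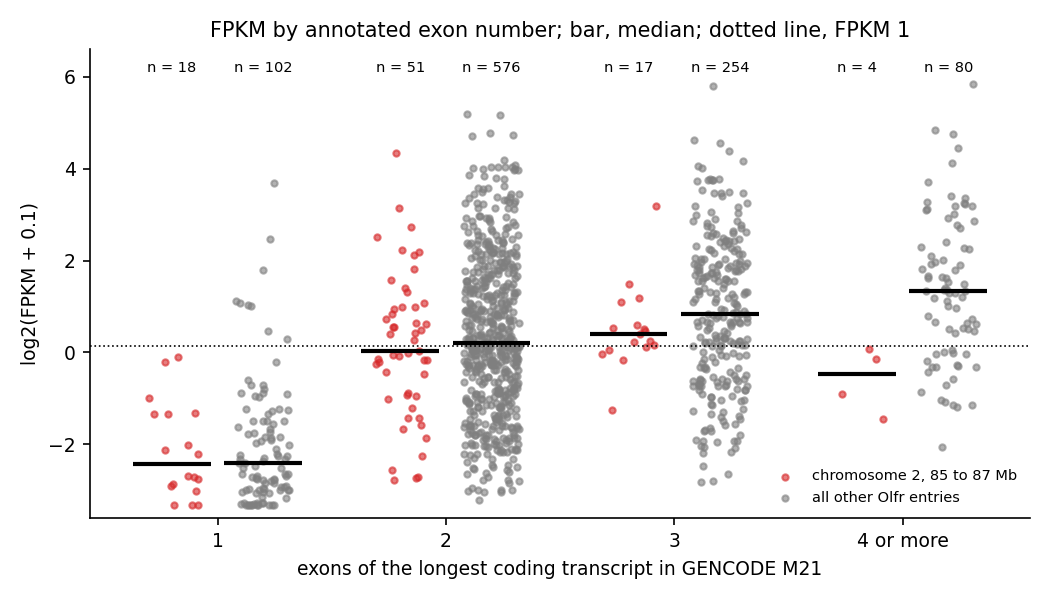
Log2(FPKM + 0.1) by annotated exon number for the 90 genes of the array (red) and all other Olfr entries in GENCODE (grey), with the median as a bar and FPKM 1 as the dotted line. The single-exon medians are 0.0854 FPKM in the array and 0.0891 FPKM elsewhere, and no single-exon gene of the array reaches the line.

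Ranked across the array, exon number and FPKM had a Spearman's rho of 0.464 (Pearson's r with log2(FPKM + 0.1) 0.387) over the 90 genes, against 0.370 over 1012 other entries. It was 0.253 over the 77 genes at 0.1 FPKM or more. With the number of annotated transcripts rho was 0.421, with 5' UTR length 0.241 (80 genes) and with 3' UTR length 0.161 (79 genes). Genes are not independent replicates and share libraries and annotation, so these are descriptions without a p-value.

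The mRNA ends of the array's genes also differed in the annotation, and these lengths were not tested between gene sets. The 5' UTR had a median length of 161 nt over 80 genes, against 309 nt over 947 other entries. The 3' UTR had a median of 1306 nt over 79 genes, against 1685 nt over 942 others. Its AU content had a median of 68.9% (interquartile range 64.5% to 71.0%), against 64.9% (61.6% to 68.0%). Of the 80 genes with a 5' UTR, 64 had at least 1 ATG upstream of the coding start, with a median of 3 against 5 in the other entries, whose 5' UTRs are longer. Within the array, rho of FPKM was 0.250 with AU content of the 3' UTR, against -0.0304 in the other entries. With the number of upstream ATGs it was 0.223 against 0.293, and with coding length -0.263 against -0.0419.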

How the data were processed

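RNA from olfactory epithelium was made into libraries after Trizol isolation with the TruSeq protocol, per the labels' protocols. The authors deposited FPKM, with 1 value per gene that the file headers tie to neither sample. TopHat2, Bowtie2 and Cuffdiff and the build mm9 are named, without versions or roles, per the submitters' processing notes. The sources used here name neither the gene models nor the handling of multiply mapped reads. For 59 of the 90 genes the locus length equals that of the GENCODE M21 coding sequence to within the stop codon, so those FPKM cover coding sequence only. Depth is unknown, since at the best step only 30.0% of 200 low values lay within 0.1 of a whole read. At 1 fixed step, 20% is expected for unrelated values. The best step was picked for its share, so the shares are not directly comparable.

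Locus starts were raised by 1, and mm9 coordinates come from the table. All 90 genes matched RefSeq and GENCODE M21 by symbol. Both annotations (GRCm38) supplied names, families, strand, transcript features and promoter windows. GENCODE M21 also supplied the coding sequences. Identities and unique 50-mers therefore come from another build than the mm9 coordinates. Families were the MOR names among RefSeq synonyms, clusters were runs of loci under 1 Mb apart, and a log2 value used a pseudocount of 0.1, which understates differences between low genes. Unique 50-mers of the coding sequence were those in no transcript of another Olfr entry of the table. Olfr genes absent from the table were not searched. Protein identity came from global alignment of translated GENCODE coding sequences (Biopython 1.88, BLOSUM62, gap opening -11 and extension -1), relative to the longer protein. Medians and correlations (SciPy 1.17.1) were tested on simulated data. The planned search for receptor protein motifs was not run, as no protein table was used.

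The genes, lists and motifs were chosen with earlier results of these data known. Named genes were the highest 12, the lowest 6, the ends of the array and the entries next to them, the 2 highest and the lowest of families with 5 or more genes, the 6 most identical pairs and the pseudogenes. Others were chosen after their values were seen.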

Additional observations from a re-analysis of the deposited data

How the results depend on the processing

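Which genes counted as detected followed the threshold: 37 genes reached 1 FPKM, 77 reached 0.1, 5 reached 5 and 1 reached 10. The median of 0.838 FPKM became 0.952 among genes at 0.1 FPKM or more, 1.08 among genes with status OK, 0.863 without pseudogenes, 0.942 among genes with at least 90% unique 50-mers and 0.924 without models lacking a UTR. The median log2 difference from the other entries, -0.38, kept its sign in each alternative run. It was -0.42 with a pseudocount of 0.01, -0.21 with a pseudocount of 1, -0.43 after dropping entries under 0.1 FPKM, -0.34 without pseudogenes, -0.64 against class II entries elsewhere, -1.06 against the rest of the cluster, -0.38 without models lacking a UTR and -0.24 among entries with at least 90% unique 50-mers. Spearman's correlation of FPKM with exon number, 0.464, was 0.253 among genes at 0.1 FPKM or more and 0.235 without models lacking a UTR, and that with 5' UTR length, 0.241, was 0.226 under the first of these filters. The cause of these moves was not tested. The median difference between neighbours, 1.46, was 1.65 with a pseudocount of 0.01 and 0.69 with a pseudocount of 1. The alternatives without models lacking a UTR, and the log2 difference among entries with unique 50-mers, were chosen after seeing the data. No paired analysis was possible because each gene has a single deposited value. Values without replicate 1 or 2 could not be computed either. With depth unknown, no counting error can be attached to low values.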
